A study of Homo sapiens with 6 samples.

Results

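The 8 genes described here are targets of the transcription factor p53 that act outside cell death, namely GDF15, CDKN1A, MDM2, BTG2, TRIAP1, ZMAT3, CCNG1 and PPM1D. They were taken by name as well-known p53 targets, with earlier results of these data known, and all 8 were found among the 11079 genes of the deposited table. The study measured RNA by sequencing in the established human bladder cancer line T24, to ask which genes change when the long noncoding RNA BLACAT3 is depleted. Of the 6 libraries, 3 came from cells with a hairpin against BLACAT3 (shBLACAT3, labelled as a BLACAT3 knockdown) and 3 from cells with a control hairpin (shControl, labelled WT). Both kinds of cell had received their hairpin by lentivirus, were stably selected with puromycin and grew in the same medium. The labels do not say how many hairpins or clones were used, nor whether replicates were separate cultures, so every p-value rests on a spread between libraries that may be technical.

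p53 is a tetrameric DNA-binding protein that is kept low in unstressed cells and accumulates after DNA damage and other stress. Its targets include brakes on the cell cycle, DNA repair and metabolic genes, and genes such as MDM2 and PPM1D whose products switch p53 off again. Many of these targets also answer to other factors, GDF15 for example to ATF4 in the response to amino acid and endoplasmic reticulum stress, and BTG2 to growth signals as an immediate early gene. The p53 binding element is made of a pair of decamers, and in MDM2 it lies at an internal start in the first intron.

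Upstream sequences of 3 of the genes are shown because GDF15 and BTG2 were the members with the largest change in each direction among those that passed the test below, and MDM2 carries a well-known p53 element. They are RefSeq sequences of GRCh38.p14, 250 bases before the start, written 5′ to 3′ on the plus strand of chr19:18385908-18386157, chr1:203305269-203305518 and chr12:68808767-68809016. Capitals mark a TATA box in GDF15 and the matches to a pair of adjacent p53 decamers in MDM2.
GDF15: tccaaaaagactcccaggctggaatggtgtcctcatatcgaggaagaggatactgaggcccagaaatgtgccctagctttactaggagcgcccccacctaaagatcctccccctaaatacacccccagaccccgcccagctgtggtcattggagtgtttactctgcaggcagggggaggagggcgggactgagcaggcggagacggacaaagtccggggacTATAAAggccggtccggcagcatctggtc
BTG2: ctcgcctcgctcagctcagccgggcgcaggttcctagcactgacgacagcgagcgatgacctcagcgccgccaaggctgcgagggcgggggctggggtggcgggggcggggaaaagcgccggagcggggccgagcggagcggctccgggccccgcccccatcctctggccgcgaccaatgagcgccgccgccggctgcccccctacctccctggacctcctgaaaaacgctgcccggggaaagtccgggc
MDM2, internal start: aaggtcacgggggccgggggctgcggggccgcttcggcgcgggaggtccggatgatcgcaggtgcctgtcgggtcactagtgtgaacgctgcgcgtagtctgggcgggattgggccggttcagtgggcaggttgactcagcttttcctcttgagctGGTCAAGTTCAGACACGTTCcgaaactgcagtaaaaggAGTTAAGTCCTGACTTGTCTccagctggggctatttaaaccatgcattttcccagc

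In windows of 250 bases before to 50 bases after a start, 6 motifs were searched on both strands, with 13 windows for the 8 genes and 35114 windows in all. A pair of adjacent p53 decamers, 20 bases with at most 3 mismatches to the p53 consensus, was found in windows of MDM2 and GDF15 and in 5.2% of all windows. That share counts windows rather than genes, and overlapping windows of MDM2 held the same matches. MDM2 held 2 such pairs before its internal start, at bases -94 to -75, counted from the start, with 2 mismatches and at bases -56 to -37 with 3 mismatches. GDF15 held 1 after its start, at bases 29 to 48, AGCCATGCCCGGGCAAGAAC, with 3 mismatches. The single p53 decamer without mismatch, which 6.63% of all windows hold, was in none of the 13. The allowance of 3 mismatches for the pair was set after that was seen. TATAAA was found in GDF15 (11.53% of all windows) and TGACGTCA in PPM1D (1.85%), while TGATGCAA (0.87%) and the CArG box (1.29%) were in none of the 13. A match describes these letters and is no measure of binding in these cells. Sequence outside the windows, and decamer pairs with bases between them, were not searched, so a missing match does not mean a missing element.

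The values are FPKM (fragments divided by the length of the transcript and the size of the library), so the number of reads behind them is unknown. Listed values summed to between 211958 and 226953 FPKM per shBLACAT3 library and between 220543 and 225122 FPKM per shControl library. Of 15 urothelial markers 5 were in the table, led by KRT18, and their sum was 124 to 142 FPKM in shBLACAT3 and 180 to 211 FPKM in shControl libraries. KRT18, KRT8 and FOXA1 had the lower mean in shBLACAT3 cells, while KRT7 (32.0 ± 3.45 FPKM in shBLACAT3 and 19.97 ± 5.62 FPKM in shControl cells) and PPARG (4.71 ± 0.307 and 3.77 ± 0.434 FPKM in shBLACAT3 and shControl cells) had the higher one (SD, n = 3 each). The other 10, KRT5, GATA3, TP63 and the uroplakins among them, had no row in the table used here. The 5 leukocyte and 4 endothelial markers had none either. The part of these markers in the results below was not tested. BLACAT3 was not analysed here, so the hairpin's effect on its own target was not checked.

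Among the 8 genes, GDF15 rose in shBLACAT3 cells, BTG2 and TRIAP1 fell, and the other 5 did not pass the test. The test was limma on log2(FPKM + 1) over the 10008 genes that averaged 1 FPKM or more in the 6 libraries, with Benjamini-Hochberg adjustment at 0.05. Of all tested genes 9.37% passed, 2.57% higher and 6.80% lower. The median log2 fold change of the 8 genes was -0.05, beside -0.0025 over all genes tested, with a lowest value of -0.54 and a highest of 0.79. The groups did not overlap in 5 of the 8 genes, where 32.8% of all tested genes had groups that did not overlap. At an unadjusted p under 0.05 in limma, CDKN1A and CCNG1 joined the 3, 5 of the 8, where 25.6% of all tested genes lay under it.

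**Figure D1:**
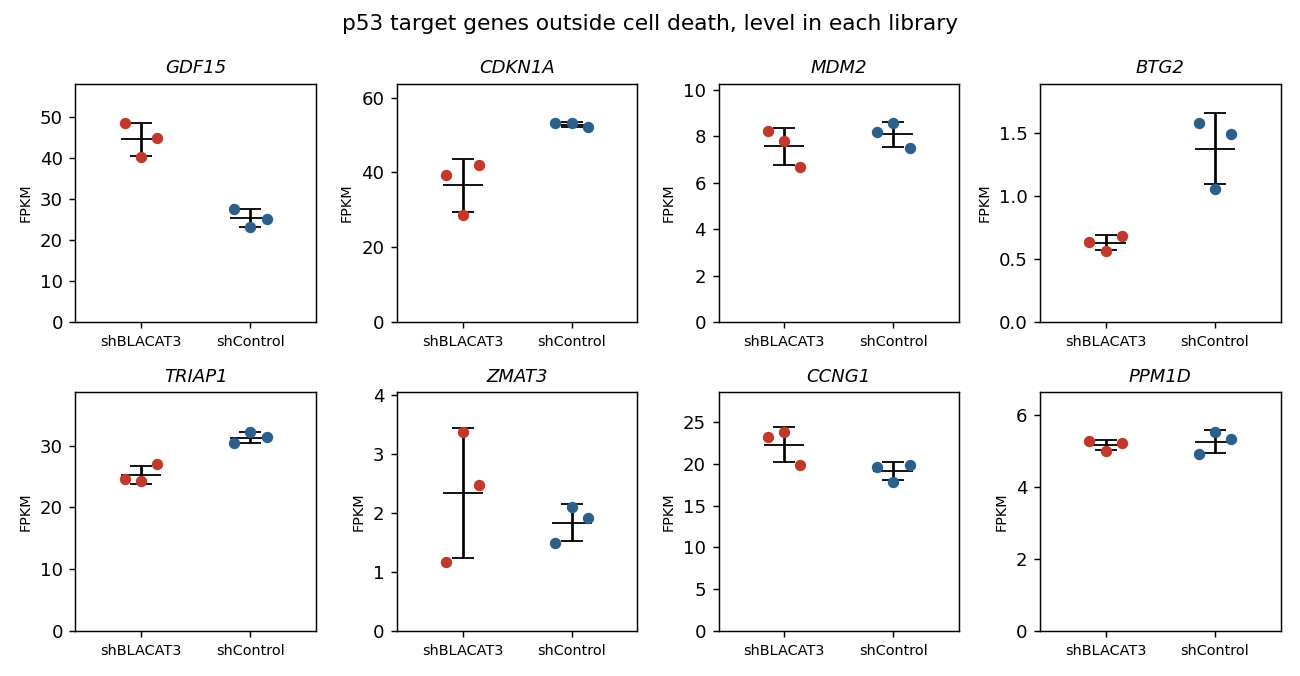
Level of each of the 8 genes in FPKM (y axis, from 0) in the shBLACAT3 libraries (red, left) and the shControl libraries (blue, right), with points for replicates 1 to 3 from left to right and bars for the mean and SD of n = 3. GDF15 lies at 40.3 to 48.3 FPKM in shBLACAT3 libraries, above every shControl library, while both groups of MDM2 and of PPM1D overlap.

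GDF15 encodes a secreted stress cytokine of the TGF-beta superfamily. It stood at 48.3, 40.3 and 44.8 FPKM in shBLACAT3 replicates 1, 2 and 3 and at 27.6, 23.2 and 25.0 FPKM in shControl replicates 1, 2 and 3. Every shBLACAT3 library was above every shControl library, and replicate 2 was the lowest of its group on both sides. The means were 44.5 ± 4.05 FPKM in shBLACAT3 cells and 25.3 ± 2.24 FPKM in shControl cells (SD, n = 3 each), a ratio of 1.76 and a log2 fold change of 0.79 (SE 0.09, limma adjusted p 0.0040). GDF15 ranked 209 of 10008 by adjusted p. It passed under every setting tried, with an adjusted p of at most 0.023 when any 1 library was left out.

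CDKN1A encodes p21, the inhibitor of cyclin-dependent kinases through which p53 arrests the cell cycle. It stood at 39.3, 28.6 and 41.9 FPKM in shBLACAT3 replicates 1, 2 and 3, against 53.1, 53.1 and 52.0 FPKM in shControl replicates 1, 2 and 3. The shControl libraries lay close together, with a coefficient of variation of 1.154%, while that of the shBLACAT3 libraries was 19.3% with replicate 2 the lowest. The groups did not overlap, but the log2 fold change of -0.53 (SE 0.14, 95% interval -0.86 to -0.21) did not pass in limma (adjusted p 0.061). Its call turned on single libraries: it passed without shBLACAT3 replicate 2 (log2 fold change -0.37, adjusted p 0.020) and without shBLACAT3 replicate 3 (-0.64, adjusted p 0.035).

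BTG2 encodes an antiproliferative protein that links RNA-binding proteins to the CCR4-NOT deadenylase. It stood at 0.639, 0.566 and 0.685 FPKM in shBLACAT3 replicates 1, 2 and 3, against 1.58, 1.06 and 1.496 FPKM in shControl replicates 1, 2 and 3. Every shBLACAT3 library was below every shControl library. The means were 0.630 ± 0.060 FPKM in shBLACAT3 and 1.38 ± 0.278 FPKM in shControl cells (SD, n = 3 each), a ratio of 0.457, the lowest of the 8 genes. On the log2(FPKM + 1) scale, which understates the change of so low a gene, BTG2 fell by 0.54 (SE 0.11, limma adjusted p 0.027), and with a pseudocount of 0.1 it fell by 1.003. BTG2 reached the mean of 1 FPKM needed for the test only through its shControl libraries, and without any filter on low values the adjusted p was 0.023. The call was lost without shBLACAT3 replicate 1 (0.076) or 2 (0.069) and under quantile normalization (0.094), and, with no filter, without shControl replicate 1 (0.078) or 3 (0.080).

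TRIAP1 encodes a small mitochondrial protein that works with PRELID proteins in carrying phosphatidic acid between the mitochondrial membranes. It stood at 24.6, 24.3 and 27.0 FPKM in shBLACAT3 replicates 1, 2 and 3, against 30.4, 32.2 and 31.3 FPKM in shControl replicates 1, 2 and 3. The groups did not overlap, and both were tight, with coefficients of variation of 5.68% in shBLACAT3 and 2.91% in shControl libraries. TRIAP1 averaged 25.3 ± 1.44 FPKM in shBLACAT3 and 31.3 ± 0.911 FPKM in shControl cells (SD, n = 3 each) and fell by 0.30 on the log2 scale (SE 0.06, limma adjusted p 0.035). The call was lost when any 1 library other than shBLACAT3 replicate 3 was left out (adjusted p 0.070 to 0.13), with median scaling (0.067) and without the mean-variance trend (0.0503).

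Of the 3 genes that feed back on p53, 0 passed in limma, and 1, CCNG1, had an unadjusted p under 0.05. The shares over all tested genes were 9.37% and 25.6%. MDM2, the ubiquitin ligase that marks p53 for degradation, stood at 8.25, 7.79 and 6.69 FPKM in shBLACAT3 replicates 1, 2 and 3 and at 8.20, 8.56 and 7.51 FPKM in shControl replicates 1, 2 and 3. The MDM2 groups overlapped, and the log2 fold change was -0.09 (SE 0.10, 95% interval -0.31 to 0.14, limma adjusted p 0.61). PPM1D, the WIP1 phosphatase that removes activating phosphates from p53 and the damage kinases, stood at 5.29, 5.02 and 5.23 FPKM in shBLACAT3 and at 4.91, 5.53 and 5.35 FPKM in shControl replicates 1, 2 and 3. Its groups overlapped too, with a log2 fold change of -0.02 (SE 0.08, 95% interval -0.20 to 0.16, limma adjusted p 0.90), the smallest difference of the 8 genes. CCNG1, cyclin G1, which brings the phosphatase PP2A to MDM2, stood at 23.3, 23.8 and 19.93 FPKM in shBLACAT3 and at 19.6, 17.9 and 19.91 FPKM in shControl replicates 1, 2 and 3. The lowest CCNG1 value of the shBLACAT3 libraries, in replicate 3, was almost that of the highest shControl library. Its log2 fold change of 0.21 (SE 0.09, 95% interval 0.00 to 0.42) did not pass in limma (adjusted p 0.19).

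ZMAT3, a zinc finger protein that binds RNA, was the member that varied most among the shBLACAT3 libraries. It stood at 1.17, 3.37 and 2.48 FPKM in shBLACAT3 replicates 1, 2 and 3 and at 1.49, 2.11 and 1.91 FPKM in shControl replicates 1, 2 and 3. The coefficient of variation was 47.5% in shBLACAT3 and 17.3% in shControl libraries, and both the lowest and the highest of the 6 values were shBLACAT3 libraries. Its log2 fold change of 0.18 (SE 0.25, 95% interval -0.42 to 0.78, limma adjusted p 0.69) turned to -0.042 without shBLACAT3 replicate 2.

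**Figure D2:**
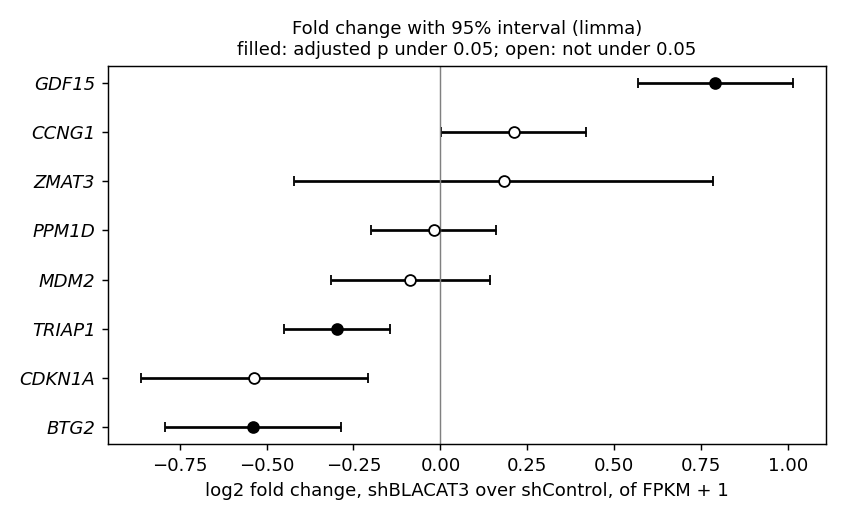
Log2 fold change of FPKM + 1, shBLACAT3 over shControl (x axis), of the 8 genes, with the 95% interval from limma as bars. Filled points (GDF15, TRIAP1, BTG2) had an adjusted p under 0.05, and the interval of ZMAT3 is the widest.

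FPKM is a level per length, so the genes can also be ordered among themselves. In shBLACAT3 cells the order of mean FPKM was GDF15 (44.5), CDKN1A (36.6), TRIAP1 (25.3), CCNG1 (22.3), MDM2 (7.58), PPM1D (5.18), ZMAT3 (2.34) and BTG2 (0.630). In shControl cells it was CDKN1A (52.7), TRIAP1 (31.3), GDF15 (25.3), CCNG1 (19.1), MDM2 (8.09), PPM1D (5.26), ZMAT3 (1.84) and BTG2 (1.38). GDF15 thus stood first in shBLACAT3 cells and behind CDKN1A and TRIAP1 in shControl cells. In shBLACAT3 cells the single-library values of GDF15 and CDKN1A overlapped, and in shControl cells those of ZMAT3 and BTG2 did. Among shBLACAT3 libraries, replicate 2 was the lowest for 5 of the 8 genes and the highest for 2, ZMAT3 and CCNG1.

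**Figure D3:**
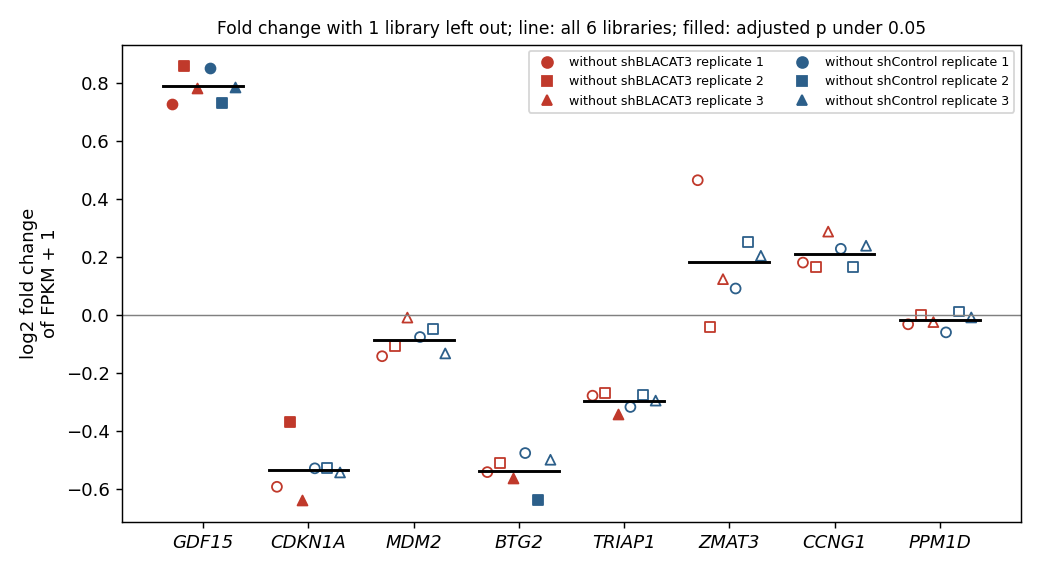
Log2 fold change of FPKM + 1, shBLACAT3 over shControl (y axis), of each gene when 1 library is left out (symbols; red for an shBLACAT3, blue for an shControl library), with the value from all 6 libraries as a line. Filled symbols had an adjusted p under 0.05: GDF15 is filled throughout, and the blue BTG2 symbols come from fits with no filter on low values.

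Of 19 tested regulators of p53, 1 rose and 0 fell, where 2.57% of all tested genes rose and 6.80% fell. The median log2 fold change of the 19 was 0.12. The one that rose was HIPK2, a kinase that phosphorylates p53, at 19.4 ± 0.756 FPKM in shBLACAT3 and 14.5 ± 0.175 FPKM in shControl cells (SD, n = 3 each; limma adjusted p 0.010). The call of HIPK2 was lost without any 1 of the shControl libraries (adjusted p 0.052 to 0.056).

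Of 40 tested genes in a further list of p53 targets, 3 fell and 0 rose. A lower mean was seen in 30 of the 40, and their median log2 fold change was -0.08. The list was meant for targets outside cell death but also holds genes with a part in it, such as AEN and CDIP1. Its split from the list of p53 targets in cell death is therefore not clean. Over all tested genes 6.80% fell and 50.6% had a lower mean. RAP2B, a small GTPase of the RAS family, changed most among those that passed, at 4.97 ± 0.109 FPKM in shBLACAT3 and 11.1 ± 0.273 FPKM in shControl cells (SD, n = 3 each), a log2 fold change of -1.03 (SE 0.07, limma adjusted p 0.00027). SFN, the 14-3-3 sigma protein that holds cells before mitosis, fell by 0.46 to 85.8 ± 9.02 FPKM in shBLACAT3 cells, against 117.8 ± 6.22 FPKM in shControl cells (limma adjusted p 0.026). IER5, an immediate early gene, fell by 0.38 on the log2 scale (limma adjusted p 0.031). The SFN and IER5 calls were lost without shBLACAT3 replicate 1 or any 1 of the shControl libraries, and that of IER5 also without shBLACAT3 replicate 2 (adjusted p 0.065 to 0.13 over these fits). Of 9 tested p53 targets in cell death, 5 fell and 0 rose, namely PMAIP1, FAS, BBC3, PERP and TNFRSF10B, with a median log2 fold change of -0.40 over the 9. The pathway lists, this one included, were drawn up with earlier results of these data known. FAS lost its call in 4 of the 6 fits with a library left out, and PERP without shControl replicate 1 (adjusted p 0.061).

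**Figure D4:**
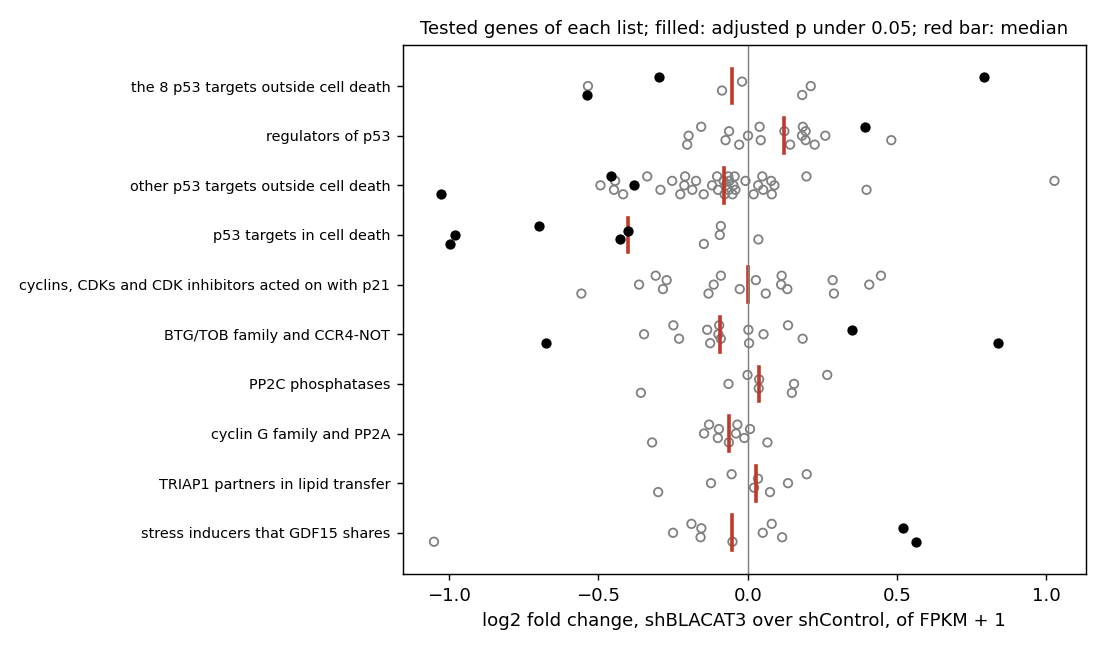
Log2 fold change of FPKM + 1, shBLACAT3 over shControl (x axis), of every tested gene in each pathway list (rows), with filled points for an adjusted p under 0.05 and a red bar for the median. The median of the p53 targets in cell death is -0.40, and those of the other lists lie between -0.09 and 0.12. The lists were drawn up with earlier results of these data known, and the list of other p53 targets outside cell death also holds genes with a part in cell death.

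Around CDKN1A, 0 of 18 tested cyclins, kinases and inhibitors that act with p21 passed in limma, 7 of the 18 had an unadjusted p under 0.05, 8 had groups that did not overlap, and the median log2 fold change was 0.00. The shares over all tested genes were 25.6% under that p and 32.8% without overlap. The 2 with the smallest p were CCND1, cyclin D1, at 138 ± 11.5 FPKM in shBLACAT3 and 112.8 ± 4.03 FPKM in shControl cells (adjusted p 0.058), and CCND3, cyclin D3, at 2.86 ± 0.639 and 4.65 ± 0.681 FPKM in shBLACAT3 and shControl cells (adjusted p 0.064; SD, n = 3 each). Around BTG2, 2 of 16 tested genes of its family and of the CCR4-NOT complex rose and 1 fell. Over all tested genes 2.57% rose and 6.80% fell. BTG1, the closest relative of BTG2, stood at 8.36, 7.95 and 7.55 FPKM in shBLACAT3 and at 13.0, 12.9 and 13.9 FPKM in shControl replicates 1, 2 and 3. BTG1 therefore fell by 0.67 on the log2 scale (SE 0.07, limma adjusted p 0.0024), with groups that did not overlap. CNOT11, a subunit of the deadenylase complex, rose to 23.5 ± 2.15 FPKM in shBLACAT3 cells, against 12.7 ± 1.13 FPKM in shControl cells (SD, n = 3 each; log2 fold change 0.84, limma adjusted p 0.0031). PABPC1, the poly(A)-binding protein, had a log2 fold change of 0.35 (limma adjusted p 0.039), a call lost in 5 of the 6 fits with a library left out and under median scaling (0.056).

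Around the remaining members, limma called 0 of 8 PP2C phosphatases related to PPM1D, 0 of 11 genes of the cyclin G family and PP2A, and 0 of 8 partners of TRIAP1 in lipid transfer. At an unadjusted p under 0.05 the counts were 2, 0 and 1. Over all tested genes 9.37% passed and 25.6% lay under that unadjusted p. The median log2 fold changes of these lists were 0.04, -0.06 and 0.03. The smallest p among the phosphatases belonged to PPM1K (1.53 ± 0.118 FPKM in shBLACAT3 and 2.25 ± 0.316 FPKM in shControl cells; SD, n = 3 each), with a limma adjusted p of 0.071. The next of the phosphatases was PPM1B, at 10.4 ± 0.525 FPKM in shBLACAT3 and 8.47 ± 0.630 FPKM in shControl cells (limma adjusted p 0.094). In the cyclin G and PP2A list the smallest p belonged to PPP2R1A, the scaffold subunit of PP2A (log2 fold change -0.15, limma adjusted p 0.20), and CCNG2, cyclin G2 (-0.32, 0.21). In the lipid transfer list they belonged to PRELID2 (-0.30, limma adjusted p 0.13) and CRLS1, cardiolipin synthase (0.20, 0.34).

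Of 11 tested stress genes that share inducers with GDF15, 2 rose and 0 fell, where 2.57% of all tested genes rose and 6.80% fell. The median log2 fold change of the 11 was -0.05. ATF4, the transcription factor of the amino acid response, stood at 109.1, 90.3 and 99.0 FPKM in shBLACAT3 and at 65.6, 70.3 and 70.6 FPKM in shControl replicates 1, 2 and 3. ATF4 thus had no overlap between groups (log2 fold change 0.52, SE 0.08, limma adjusted p 0.011), and its call was lost without shControl replicate 1 (0.058). ASNS, asparagine synthetase and an ATF4 target, rose to 53.2 ± 1.25 FPKM in shBLACAT3 cells, against 35.8 ± 3.67 FPKM in shControl cells (SD, n = 3 each; limma adjusted p 0.0094). The other 9 did not pass. Among them ATF3, a stress factor that binds with ATF4 family members, had a lower mean, 5.11 ± 1.82 FPKM in shBLACAT3 and 11.6 ± 3.44 FPKM in shControl cells (SD, n = 3 each; limma adjusted p 0.075), with no overlap between groups. DDIT3, which encodes CHOP, had 13.9 ± 0.380 FPKM in shBLACAT3 and 16.0 ± 1.49 FPKM in shControl cells (SD, n = 3 each; limma adjusted p 0.21).

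Over the 6 libraries, the genes whose log2 level was most like that of GDF15 were METTL2B, DUS3L and FARP1, with Pearson's r of 0.997, 0.997 and 0.994. Those most like BTG2 were PALM, APOBEC3F and PFKP, with r of 0.996, 0.993 and 0.992. These values describe 6 points that fall into 2 groups, and of the 6 genes DUS3L (adjusted p 0.0077) and PALM (0.028) passed in limma. METTL2B and APOBEC3F have close copies in the genome, so the split of reads between the copies is uncertain.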

How the data were processed

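RNA was sequenced from 3 shBLACAT3 and 3 shControl libraries of T24 cells with a strand-aware kit, per the labels' protocols. The submitters' processing notes name cutadapt, HISAT2 2.1.0 and StringTie without role or order; no label or header gives the build, annotation or strand setting. A version suffix closes 10981 of the identifiers, as GENCODE writes them for annotation mapped to GRCh37, so the GRCh38 sequences and GENCODE 29 exons used here may not be those of the authors' annotation. The deposited values were read as FPKM from the values, since the file header names no unit; depth is therefore unknown and no count test was run. Of 11081 rows 11007 matched a symbol, and rows of the 2 symbols with more than 1 row were summed. In every row the higher group mean was at least 0.5008 FPKM, so lower genes were not analysed here.

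Genes that averaged 1 FPKM or more entered limma 3.58.1 (R 4.3.3) as log2(FPKM + 1) (group only, mean-variance trend, two-sided, Benjamini-Hochberg over all tested genes, threshold 0.05). In simulated data with the spread of these libraries, 64% of changes of 0.5 on the log2 scale and 90% of changes of 1 were recovered, with 14 false calls. A gene that did not pass may therefore still have changed. The changes were placed only in well-expressed genes, so the check does not cover BTG2, ZMAT3, PPM1D or MDM2. NC and SH columns were read as shControl and shBLACAT3. The members and lists were chosen with earlier results of these data known; the allowance of 3 mismatches in the motif search was set after the exact decamer was found in none of the 13 windows of the members. Named were all members, up to 4 called genes per list with the largest change or the 2 with the smallest p, the marker with the highest mean, and the 3 genes most like the member that changed most in each direction; ATF3, DDIT3 and TNFRSF10B were named after their values were seen. Of the genes that the rule takes, 1 is not reported here. In GENCODE 29, 2 of the 8 genes share exon bases with another gene, CDKN1A (1.3% of its exon bases, opposite strand) and MDM2 (at most 6.2%), and these other genes are not in the table used here. The other settings tried were the replicate block, a pseudocount of 0.1, a filter at 0.1 FPKM and none, median and quantile scaling, no trend, robust moderation and each library left out. Figures were drawn with matplotlib 3.10.9.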

Additional observations from a re-analysis of the deposited data

How the results depend on the processing

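Over all genes 938 passed, and of the 8 p53 targets 3. With the replicate block 612 genes passed and 2 of the 8 (TRIAP1 lost its call, adjusted p 0.072). The other pathway genes called numbered 14 with and without it, 11 of them shared: IER5, FAS and PABPC1 lost their calls (0.055 to 0.096) and HBEGF, CCND3 and CCNE2 gained one (0.034 to 0.045). The replicate numbers were not taken as a pairing, since the correlations of same-numbered deviations were 0.1002, 0.117 and 0.0896, although each library correlated best with its own number. With 1 library left out, 357 to 1339 genes, 1 to 4 of the 8 and 7 to 17 pathway genes passed. BTG2 was under the filter in the 3 fits without an shControl library, so 3 fits without that filter were added after seeing the data. The log2 fold change of PPM1D changed sign within its error when 1 library was left out (-0.060 to 0.012), and so did that of ZMAT3 (-0.042 to 0.47). The median log2 fold change of all genes was 0.0032 under median scaling and 0.026 under quantile normalization. GDF15 kept its direction and call in every setting. FPKM without counts gives no measure of depth, so the precision of low genes such as BTG2 and ZMAT3 is not known beyond the spread of their libraries.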

Other observations

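A further 5 genes from the list of other p53 targets outside cell death lay under the mean of 1 FPKM. They were not in the main fit and are given from the fit without a filter. In it PHLDA3, an inhibitor of AKT, had 0.052 ± 0.045 FPKM in shBLACAT3 and 0.552 ± 0.096 FPKM in shControl cells (SD, n = 3 each; limma adjusted p 0.0060). TRIM22, a p53 target that interferon also induces, had 0.025 ± 0.025 FPKM in shBLACAT3 and 0.822 ± 0.121 FPKM in shControl cells (SD, n = 3 each; limma adjusted p 0.0012). RRAD, a small GTPase of the RGK family, had 0.112 ± 0.110 FPKM in shBLACAT3 and 0.997 ± 0.173 FPKM in shControl cells (SD, n = 3 each; limma adjusted p 0.0042). TP53INP1, which takes part in autophagy, had the higher mean in shBLACAT3 cells, with 0.834 ± 0.029 FPKM in shBLACAT3 and 0.548 ± 0.107 FPKM in shControl cells (SD, n = 3 each; limma adjusted p 0.097). KITLG, the ligand of the KIT receptor, had 0.970 ± 0.682 FPKM in shBLACAT3 and 0.631 ± 0.260 FPKM in shControl cells (SD, n = 3 each; limma adjusted p 0.63). Since rows needed a group mean of about 0.5 FPKM to be in the table, a gene as low in shBLACAT3 cells as PHLDA3, TRIM22 and RRAD was listed only through its shControl libraries and had to differ.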
